A study of Mus musculus with 80 samples.

Results

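The genes described here are 10 genes of the lipid droplet coat and of lipolysis, measured in mouse liver with and without food. They were selected on the measured difference between fasted and control livers in these same samples, in which Cidec was known to be among the largest rises, so their difference between fasted and control livers is given as a description without p-values, and the number of them called is set beside the share of all genes without support being drawn from it. They were found by symbol in the deposited table of counts per gene, where 10 of the 78275 listed genes are members. By role they are the CIDE proteins (Cidec, Cideb), the perilipins (Plin2, Plin3, Plin4, Plin5), the lipolysis genes (Pnpla2, Abhd5, G0s2) and the droplet formation gene Fitm1. All 10 passed the filter on low counts.

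The livers came from C57BL/6J mice, an inbred laboratory strain, of both sexes, 8 to 12 weeks old when bought, on standard chow. After 10 days of light and dark the mice were placed in constant darkness, and all were fed until circadian time (CT) 10. Control mice then kept food ad libitum, while fasted mice lost it at CT10, so that the fast had lasted 2 h at CT12 and 34 h at CT44. Each of the 10 times, every 4 h from CT8 to CT44, has 2 males and 2 females per treatment, each a separate mouse, which gives 80 libraries. The RNA came from the middle of the left lobe, a piece of about 40 mg, and therefore holds all cell types of the liver. In such bulk samples, fewer cells of a type and less RNA per cell cannot be told apart.

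A lipid droplet is a store of triacylglycerol enclosed by a phospholipid monolayer and coated by proteins. Perilipins cover its surface and limit or organize access of lipases, and CIDE proteins sit where droplets touch and let lipid pass into the larger droplet, so that droplets grow. Pnpla2 encodes adipose triglyceride lipase, which removes the first fatty acid from triacylglycerol; Abhd5 (CGI-58) encodes its co-activator and G0s2 its inhibitor. During a fast, fatty acids released by adipose tissue reach the liver, where they are partly oxidized and partly stored in droplets.

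Total counts per library lay between 25534901 and 59927771, with a median of 42303883. For 40 libraries the title names another sex than the further labels, and for 40 another treatment. Groups follow the titles, and Xist and 3 Y-linked genes went with the titled sex in 80 of 80 libraries. The fasted CT40 female 2 library stood apart most, with 1985 of 11576 genes over 2-fold from the mean of the other libraries of its group, and control CT8 female 2 held 31.3% of its counts on 18S ribosomal RNA (median of all libraries 0.101%). Hepatocyte markers summed to between 59200 and 133000 CPM (the usual unit of counts relative to the scaled library total) over the 72 libraries from CT12 on. Of the 6 adipocyte markers only Adrb3 had a median above 0.5 CPM, and the other 5, Adipoq, Lep, Retn, Cfd and Plin1, summed to 0 to 2.57 CPM in control and 0 to 2.28 CPM in fasted livers from CT12 on. The 5 skeletal muscle markers summed to at most 0.915 CPM. The 5 Kupffer cell markers were all lower in fasted livers and summed to 182 to 541 CPM (median 284) in control and 118 to 390 CPM (median 212) in fasted libraries; their part in the results was not tested.

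From CT12 to CT44, 7 of the 10 genes were called higher in fasted than in control livers and 2 lower, where 29.5% and 32.9% of the 21187 genes tested were called in these directions; since the choice of the genes used this contrast, nothing is read from the counts. The median of the 10 differences was 1.18 on the log2 scale, against -0.02 over all genes. The order by size was Cidec, Plin4, Pnpla2, Plin5, Plin2 and G0s2, with log2 differences from 5.62 to 0.96, followed by Cideb at 0.09. Abhd5 and Fitm1 (-0.36 and -0.37) were lower, and Plin3 was at -0.12. Which of the small differences were called depends on the setting: over 14 alternatives Cideb lost its call in 4 and Fitm1 in 3, and Plin3 gained one in 6. The genes did not share 1 direction even within a role: among the lipolysis genes the lipase and its inhibitor were higher and the co-activator was lower.

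**Figure D1:**
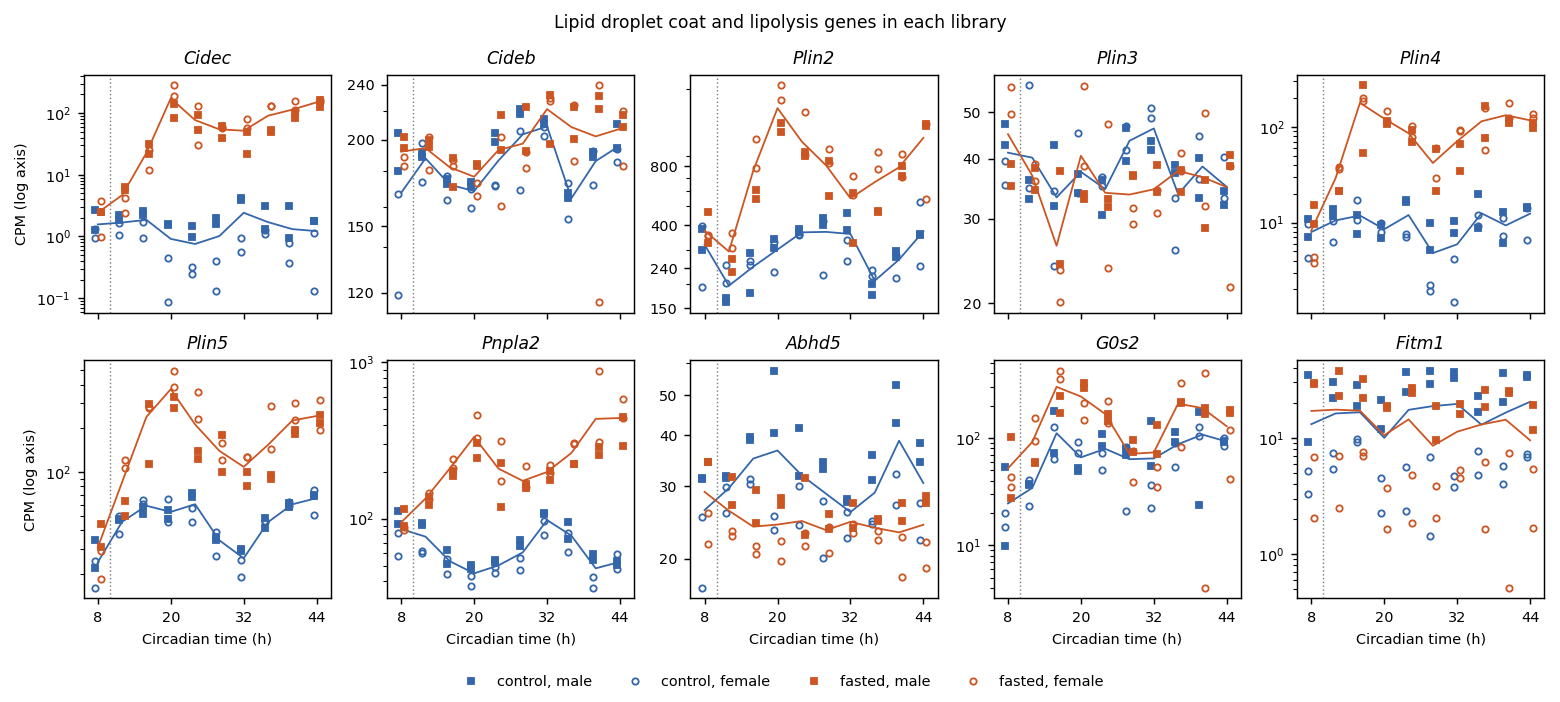
CPM of each gene (log axis) in each library against circadian time; blue is control, orange fasted, filled squares are males, open circles females, lines join the means of 4 libraries and the dotted line marks CT10, when fasted mice lost food. For Cidec, Plin4 and Pnpla2 every fasted library lies above every control library at each of the 9 times from CT12 on. The share of all genes that do so was not counted.

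Cidec (ENSMUSG00000030278.12) encodes a protein of droplet contact sites known from white fat, where it favours large droplets. In the 36 control libraries from CT12 on it ranged from 0.0862 to 4.19 CPM with a median of 1.29, and in the 36 fasted libraries from 2.42 to 281 CPM with a median of 60.7. Control values rest on 4 to 169 counts and fasted values on 83 to 12078. The mean log2 difference was 5.62 (SE 0.15), the sixth largest of 21187 genes, and the groups did not overlap at any of the 9 times. How many of all genes separate in this way was not counted, so nothing is read from it, here or for the genes below.

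Fasted libraries were already above control libraries 2 h after food removal. At CT12 control libraries held 2.20, 1.84, 1.04 and 1.66 CPM of Cidec and fasted libraries 5.68, 6.37, 4.20 and 2.42 CPM. The log2 difference was 1.44 (SE 0.42) there and 0.66 (SE 0.44) at CT8, before food removal. At CT12 the adipocyte markers Adipoq, Lep, Retn, Cfd and Plin1 summed to 0.0741 to 1.49 CPM in fasted and 0 to 0.324 CPM in control libraries. Their part in the Cidec values was not tested. At CT20, after 10 h, control libraries held 1.61, 1.51, 0.0862 and 0.442 CPM and fasted libraries 82.0, 141, 281 and 189 CPM, in the order male 1, male 2, female 1, female 2. The log2 difference was largest at this time, 7.97 (SE 0.50), and 4.80 (SE 0.43) at CT32 and 7.11 (SE 0.47) at CT44. The fasted mean was 173 CPM ± 84 (SD, n = 4) at CT20, 54.4 ± 10 at CT28, 51.7 ± 23.7 at CT32 and 149 ± 16.1 at CT44.

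The Cidec messenger has a far and a near annotated start, and a short annotated transcript begins at a further one; the table of exon bins separates them. In the GENCODE M21 annotation (GRCm38) the gene lies at chr6:113424634-113435760 on the minus strand. The near start, inside an intron of the transcripts from the far start, lies 996 bases downstream of the far start and leads to a coding sequence of 249 codons, 10 more than the 239 of the far start. The 250 bases before the far and the near start are shown because the near first exon held most of the first-exon counts; they are RefSeq sequence on GRCm38.p6, 5′ to 3′ on the minus strand, in lower case as none of the motifs searched lies in them.
Cidec near start, chr6:113434765-113435014: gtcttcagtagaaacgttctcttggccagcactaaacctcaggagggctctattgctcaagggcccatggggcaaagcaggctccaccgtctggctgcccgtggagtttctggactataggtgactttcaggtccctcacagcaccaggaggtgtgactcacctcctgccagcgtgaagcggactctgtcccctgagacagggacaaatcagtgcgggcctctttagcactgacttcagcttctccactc
Cidec far start, chr6:113435761-113436010: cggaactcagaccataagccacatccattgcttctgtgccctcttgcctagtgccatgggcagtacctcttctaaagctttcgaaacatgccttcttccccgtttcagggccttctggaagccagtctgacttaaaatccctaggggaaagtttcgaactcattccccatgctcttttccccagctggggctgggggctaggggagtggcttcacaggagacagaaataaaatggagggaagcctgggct

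The first exon of the near start, a bin of 35 bases, held 5195 counts summed over the 36 fasted libraries and had counts in all 36. The 3 bins of the far first exons held 23 counts in 7 of those libraries, so that 99.56% of the counts on the near and far first exons were on the near one. The first-exon bin of the short transcript, 101 bases directly before the next shared exon, held 153 counts in 26 of the fasted libraries. In the 36 control libraries the near bin held 45 counts, in 14 libraries, and the far bins and the bin of the short transcript none. In fasted libraries the near bin had 148 counts per base, within the 117 to 322 of the 6 exon bins shared by the transcripts of the far and near starts, and in control libraries 1.29, below the 1.71 to 5.21 of those bins. The highest values, 322 and 5.21, were those of the shortest shared bin, of 43 bases. Counts per base of bins of unlike length are therefore not directly comparable, and nothing is read from the place in the range. Reads from unspliced RNA would also fall on the near bin; the bin of the short transcript, which is intron to the others, had 1.51 counts per base in fasted libraries. The exon table places 3 of its 80 columns, all fasted CT40, nearest to another library of the same treatment and time, so its columns were used only by treatment and time. Positions assume that M21 and the table cut the gene alike; both have 13 bins.

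**Figure D2:**
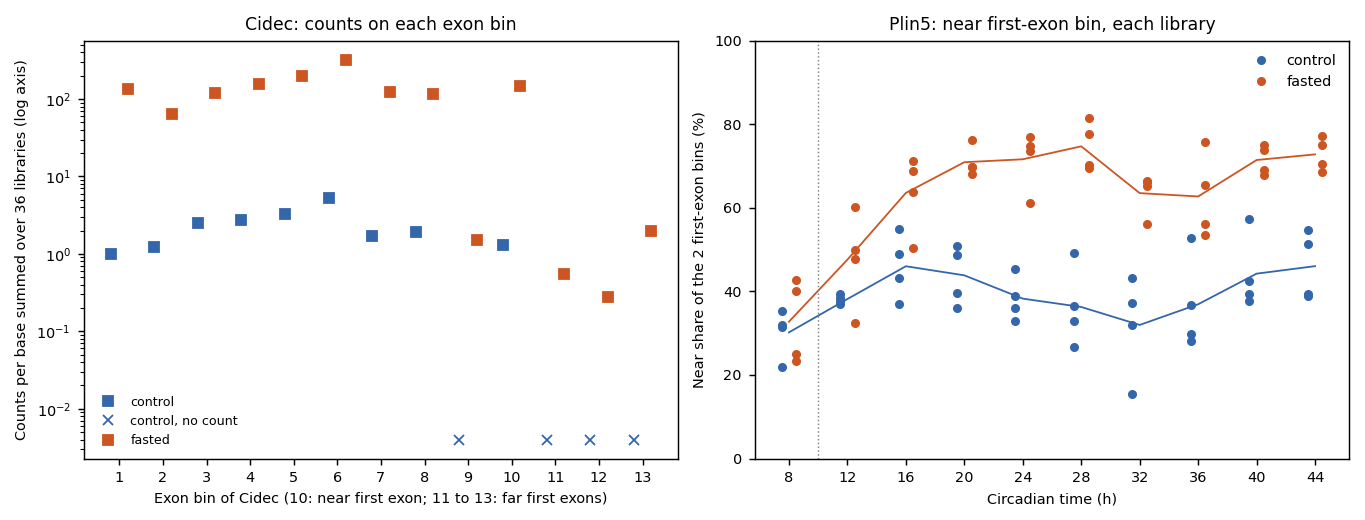
Left: counts per base on each of the 13 exon bins of Cidec, summed over 36 control (blue) and 36 fasted (orange) libraries from CT12 to CT44 (log axis; crosses mark bins without a count). Right: share of the near bin among the 2 first-exon bins of Plin5, in percent, for each library against circadian time, with lines through the means of 4. In fasted libraries the near Cidec bin (10) lies within the range of the 6 shared bins (3 to 8) and in control libraries below it, the far bins (11 to 13) are almost empty, and the Plin5 share is higher in fasted libraries. The Cidec bins differ in length, which limits the comparison of their counts per base.

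Cideb (ENSMUSG00000022219.11) encodes the CIDE protein of hepatocytes, which acts in lipidation of very low density lipoprotein. It was among the steadiest of the genes: control libraries ranged from 153 to 221 CPM (median 187) and fasted libraries from 116 to 240 CPM (median 196), with a log2 difference of 0.09 (SE 0.04). All fasted libraries were above all control libraries at 1 of 9 times, CT36. The fasted minimum of 116 CPM belongs to fasted CT40 female 2. In M21, 1136 bases of its exons overlap those of Nop9 on the other strand; the libraries keep strand, but whether the counting used it is not given in the sources used here. Per kilobase of exon, median levels in control livers were 126 CPM for Cideb and 0.696 CPM for Cidec, and in fasted livers 132 and 32.7 CPM, so by these medians Cideb was the higher of the pair. The ranges in fasted livers overlapped, with 1.3 to 151 CPM per kilobase for Cidec and 78.2 to 161 for Cideb.

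Among the perilipins, 3 of 4 were higher in fasted livers and they differed in starting level and size. Plin2, the main perilipin of hepatocyte droplets, ranged from 161 to 523 CPM (median 286) in control and from 231 to 2080 CPM (median 796) in fasted libraries. Its log2 difference was 1.40 (SE 0.08), all fasted libraries were higher at 7 of 9 times, and the groups overlapped at CT12 and CT32. Plin2 was the gene with the highest median per kilobase in fasted livers, 227 CPM. Its fasted mean was highest at CT20, 1590 CPM ± 398 (SD, n = 4), as was that of Cidec.

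Plin4, a perilipin with a long repeat domain best known from adipocytes, ranged from 1.47 to 20 CPM (median 9.63) in control and from 21.2 to 272 CPM (median 95.7) in fasted libraries. The lowest fasted library was thus above the highest control library over the whole course. Its log2 difference was 3.29 (SE 0.13), and ranged from 1.45 (SE 0.38) at CT12 to 3.93 (SE 0.41) at CT16, with 3.84 (SE 0.41) at CT20. Plin1, the perilipin that defines adipocytes, was too low to be tested.

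Plin5, the perilipin of tissues that oxidize fatty acids, which tethers droplets to mitochondria, ranged from 19.1 to 76.2 CPM (median 49.5) in control and from 50.6 to 496 CPM (median 181) in fasted libraries. The log2 difference was 1.87 (SE 0.07), and all fasted libraries were higher at 8 of 9 times, all but CT12. Plin3, a perilipin that is found free in the cytosol and joins nascent droplets, ranged from 23.9 to 56.8 CPM (median 36.4) in control and from 20.1 to 56.8 CPM (median 35.2) in fasted libraries, with a log2 difference of -0.12 (SE 0.06). All its fasted libraries were lower at CT28 and CT32 and the groups overlapped at the other 7 times.

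Plin4, Plin5 and Plin3 lie in this order on the minus strand of chromosome 17 (GRCm38), Plin4 and Plin5 close together and Plin3 farther off, at chr17:56100591-56109803, chr17:56111601-56117596 and chr17:56277476-56292873. The neighbours Plin4 and Plin5 were both higher in fasted livers, and Plin3 was not. Plin2 lies on chromosome 4, at chr4:86648386-86670060, also on the minus strand.

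Plin5 too has a far and a near annotated start, 250 bases apart in RefSeq, with the same coding length of 463 codons. The near first exon had 18.5 counts per base in control and 115 in fasted libraries, and the far first exon 28.2 and 53.5, over 36 libraries each. The near share of both bins ranged from 15.4 to 57.3% (median 38.9) in control and from 32.5 to 81.4% (median 68.9) in fasted libraries, and all fasted libraries were higher at 7 of 9 times, while at CT8 the means were 30.2% ± 5.72 and 32.8% ± 10.0 (SD, n = 4). Unspliced RNA of the far start would be counted on the near bin as well, and its part in the result was not tested.

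The 250 bases before the annotated starts of the 10 genes (12 windows, RefSeq, GRCm38.p6) were searched on both strands for a nuclear receptor half-site AGGTCA, the E-box CACGTG and the D-box core TTATGNAA. The half-site was found in 3 of 12 windows, those of Plin2, Abhd5 and the far start of Plin5, against 14.0% of 32851 windows of all genes. The E-box and the D-box core were found in none of the 12, against 6.02% and 3.07% of all windows. The Plin2 window is shown because it belongs to the gene with the highest level and holds a half-site, in capitals on the opposite strand, that begins 218 bases before the start. A match is a description of letters and not a site of binding.
Plin2 start, chr4:86670060-86670309, minus strand: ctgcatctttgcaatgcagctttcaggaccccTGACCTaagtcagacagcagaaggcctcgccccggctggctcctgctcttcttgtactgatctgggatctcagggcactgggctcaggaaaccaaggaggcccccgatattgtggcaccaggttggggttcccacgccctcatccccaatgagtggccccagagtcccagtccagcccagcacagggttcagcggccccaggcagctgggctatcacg

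Of the lipolysis genes, Pnpla2 ranged from 36.2 to 109 CPM (median 55.5) in control and from 119 to 883 CPM (median 224) in fasted libraries, without overlap. The log2 difference was 2.02 (SE 0.07). It was 0.84 (SE 0.20) at CT12, 2.89 (SE 0.21) at CT20, 1.03 (SE 0.20) at CT32 and 3.09 (SE 0.21) at CT40. The highest value, 883 CPM, was that of fasted CT40 female 2, and the other 3 libraries of that group had 289, 256 and 311 CPM; without this library the mean log2 difference was 1.97 (SE 0.06).

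Abhd5, the co-activator, was the only lipolysis gene that was lower: 20 to 57.4 CPM (median 30.8) in control and 18.1 to 31.7 CPM (median 23.7) in fasted libraries, with a log2 difference of -0.36 (SE 0.04) and a negative difference at all 9 times. All fasted libraries were lower at 1 time, CT16, so the ranges mostly overlapped. In M21, 950 bases of its exons overlap A730085K08Rik on the other strand. G0s2, the inhibitor, ranged from 21 to 178 CPM (median 76.9) in control and from 4.05 to 421 CPM (median 150) in fasted libraries. Its log2 difference was 0.96 (SE 0.20). At CT8, when both groups still had food, it was already 1.10 (SE 0.60), not called and with overlapping ranges. All fasted libraries were higher at CT12, CT20 and CT24, and the groups overlapped at the other 6 times. The lowest G0s2 value, 4.05 CPM, was again that of fasted CT40 female 2, beside 189, 166 and 398 CPM in the other 3; without this library the log2 difference was 1.02 (SE 0.16).

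Since the protein of G0s2 inhibits that of Pnpla2, their messengers were set against each other in each library. The log2 ratio of G0s2 to Pnpla2 was positive in control livers at CT16, 0.94 ± 0.71 (SD, n = 4), and at CT40, 0.87 ± 1.46, and negative at CT8, -2.06 ± 0.96. In fasted livers it was 0.44 ± 0.48 at CT16, -1.36 ± 0.54 at CT28 and -1.94 ± 1.35 at CT44. At CT44 all 4 fasted libraries, from -3.82 to -0.68, were below all control libraries, from 0.50 to 1.08, while at CT16 the ranges overlapped. At CT40 the fasted mean of -2.16 ± 3.77 rests on the library that stood apart, at -7.77.

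**Figure D3:**
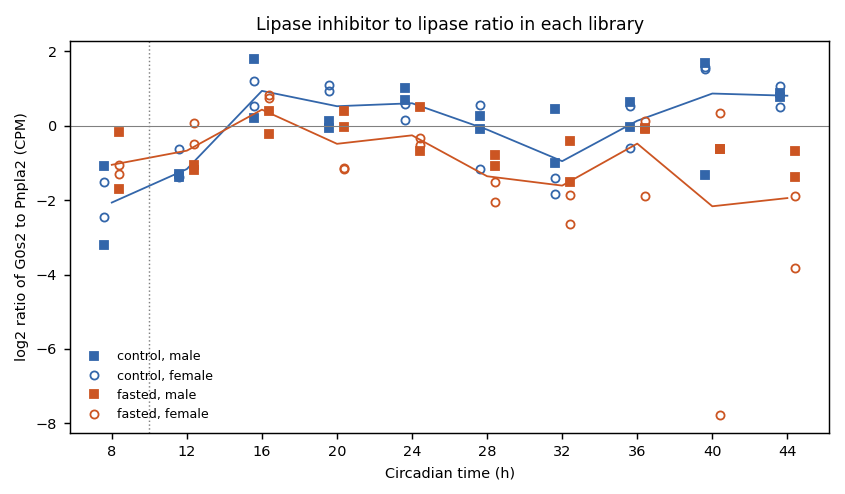
Log2 ratio of G0s2 to Pnpla2 in CPM for each library against circadian time; blue is control, orange fasted, filled squares are males, open circles females, lines join the means of 4 libraries and the dotted line marks CT10. The fasted libraries lie below the control libraries at CT44, and 1 fasted female at CT40 lies far below all others.

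Fitm1, which binds triacylglycerol in the endoplasmic reticulum and is best known from skeletal muscle, ranged from 1.43 to 37.7 CPM (median 10.9) in control and from 0.515 to 37.5 CPM (median 8.63) in fasted libraries. The log2 difference was -0.37 (SE 0.15), negative at all 9 times, with overlap at each. The lowest fasted value again belongs to fasted CT40 female 2. In M21, 109 bases of its exons overlap Gm15932 on the other strand.

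At CT8, when both groups still had food, 0 of the 10 genes differed (edgeR's quasi-likelihood test, adjusted p from 0.434 to 0.917), where 1.33% of all genes were called. At an unadjusted p under 0.05, 2696 of the 21187 genes and none of the 10 passed. Cidec was at 1.26, 2.73, 1.34 and 0.946 CPM in the control libraries and at 2.48, 2.49, 3.74 and 0.994 CPM in those of the later fasted group, with overlapping ranges and a log2 difference of 0.66 (SE 0.44). The highest of these, fasted CT8 female 1, also held 102 counts of Adipoq, 387 of Cfd and 64 of Plin1, adipocyte markers that summed to 11.5 CPM there and to at most 0.522 CPM in the other 7 libraries. Without it the difference in Cidec was 0.03 (SE 0.51). G0s2 had the largest difference, 1.10 (SE 0.60), with 9.91, 53.5, 14.7 and 20.2 CPM in control and 27.7, 103, 34.8 and 42.9 CPM in fasted libraries.

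In control livers, 8 of the 10 genes had a 24 h rhythm (edgeR's quasi-likelihood test of a cosine and a sine over 40 libraries), where 41.8% of all genes were called. The median peak-to-trough of the 10 genes was 0.90 on the log2 scale, against 0.36 over all genes. The genes peaked at different times of the cycle. Pnpla2 peaked in the late subjective day, at CT8.59, with a peak-to-trough of 0.93 on the log2 scale (adjusted p = 3.49e-10); its means were highest at CT32, 97.8 CPM ± 13.8 (SD, n = 4), and lowest at CT20, 44.6 ± 5.86. Plin5 peaked in the subjective night, at CT18.9, with a peak-to-trough of 1.25 (adjusted p = 1.18e-09), from 24.2 ± 7.48 CPM at CT8 to 66.6 ± 10.9 at CT44. The lipase and this perilipin were thus in nearly opposite phases in fed livers.

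G0s2, at CT18.7 (1.15, adjusted p = 0.0243), Abhd5, at CT18.3 (0.42, adjusted p = 5.77e-04), and Plin4, at CT16.9 (1.00, adjusted p = 0.0206), had fitted peaks in the subjective night too. Plin2 peaked at CT1.54 (0.87, adjusted p = 1.58e-04), near the start of the subjective day, and Plin3 at CT6.31 (0.30, adjusted p = 0.0314). Cidec, at its low fed level, peaked at CT11.8 with the largest fitted peak-to-trough of the 10 genes, 1.51 (adjusted p = 0.00154). Cideb (0.15, adjusted p = 0.216) and Fitm1 (0.20, adjusted p = 0.824) did not pass.

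Pnpla2 and Plin5 passed in each sex alone. Plin4 passed in females alone, with a peak-to-trough of 1.85 (adjusted p = 0.00829), and had 0.28 (adjusted p = 0.778) in males, and likewise G0s2 had 1.84 (adjusted p = 0.00449) in females and 0.50 (adjusted p = 0.754) in males. Cidec passed in females alone (2.37, adjusted p = 0.0113; males 0.86, adjusted p = 0.138). Plin2 passed in males alone (1.11, adjusted p = 0.00144; females 0.66, adjusted p = 0.0928), as did Abhd5. Whether rhythms differ between the sexes was not tested. The rhythms of Plin3, Plin4, G0s2 and Cidec also lost their call when 1 of the replicate sets was left out, Cidec only without female replicate 2 (adjusted p = 0.07).

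**Figure D4:**
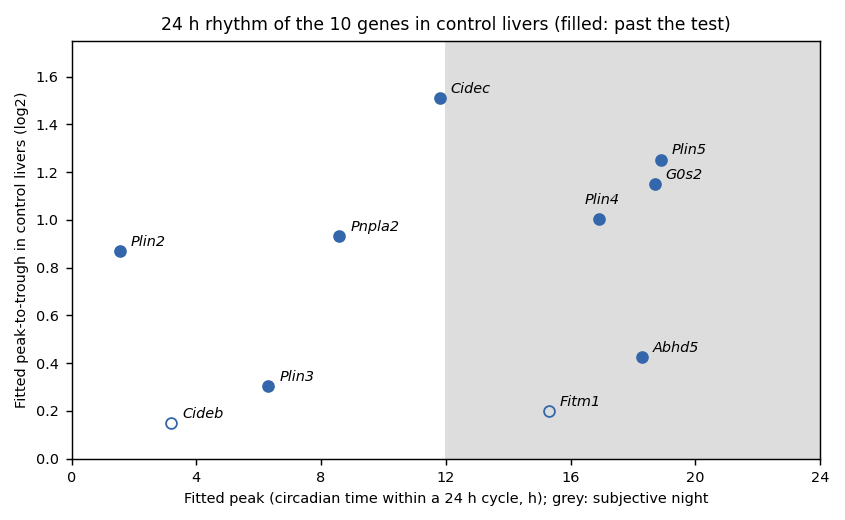
Fitted peak time (x axis, circadian time within 24 h, with the subjective night in grey) and fitted peak-to-trough (y axis, log2) of each gene in the 40 control libraries; filled points passed the test. Pnpla2 peaks at CT8.59 and Plin5, G0s2 and Abhd5 peak within an hour of each other near CT18 to CT19.

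From CT12 on, the fitted 24 h component differed between fasted and control livers for 4 of the 10 genes (edgeR's test of the difference). These were Pnpla2, Cidec, Plin2 and Abhd5, where 23.2% of all genes were called. The fit holds a mean for each treatment and sex and a linear change over time for each treatment. The libraries are those on which the genes were selected. A rise after food removal that is not linear in time can enter the cosine and sine. The Cidec difference was 1.44, 3.63 and 7.97 on the log2 scale at CT12, CT16 and CT20. The count and the adjusted p-values are therefore not free of the selection, and nothing is read from the count. For Pnpla2 the difference had a peak-to-trough of 1.93 on the log2 scale and was greatest at CT19.7 (adjusted p = 1.75e-10), in the phase at which the control level was lowest. For Cidec it was 3.59, greatest at CT22.6 (adjusted p = 3.26e-05), and for Plin2 1.26, greatest at CT19.9 (adjusted p = 4.53e-04). For Abhd5 it was 0.45, with the highest fitted point at CT6.53 (adjusted p = 0.0126). The Abhd5 difference was negative at all 9 times, so this point is where fasted livers were least below control. It was -0.08 (SE 0.115) at CT32 and -0.71 (SE 0.115) at CT40. In single sexes, Abhd5 lost its call in males (adjusted p = 0.103) and in females (adjusted p = 0.155), and Plin2 in females (adjusted p = 0.275). The means of Abhd5 lay between 26 and 38.8 CPM in control and between 23.2 and 26.2 CPM in fasted livers. Plin5 (0.68, adjusted p = 0.095), G0s2, Plin4, Plin3, Cideb and Fitm1 did not pass.

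In control livers, 6 of the 10 genes were lower in females than in males and 0 were higher, where 18.6% of all genes were called lower and 20.6% higher. The median of the 10 differences was -0.37, against 0.01 over all genes. Fitm1 ranged from 9.28 to 37.7 CPM (median 28.8) in the 20 control males and from 1.43 to 9.83 CPM (median 5.32) in the 20 control females, nearly without overlap. Its difference, female minus male, was -2.34 (SE 0.21, adjusted p = 1.25e-12). Cidec ranged from 0.941 to 4.19 CPM (median 1.82) in males and from 0.0862 to 1.74 CPM (median 0.859) in females, with a difference of -1.61 (SE 0.22, adjusted p = 1.11e-07).

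Abhd5 was lower in females by 0.49 on the log2 scale (-0.49, SE 0.05, adjusted p = 7.44e-11), Plin4 by 0.60 (-0.60, SE 0.17, adjusted p = 0.00404), Pnpla2 by 0.33 (-0.33, SE 0.09, adjusted p = 0.00175) and Cideb by 0.12 (-0.12, SE 0.05, adjusted p = 0.0439). The ranges of these 4 genes in males and females overlapped. The Cideb call was lost in 7 of 12 alternatives and that of Plin4 in 1, without female replicate 2 (adjusted p = 0.143). Plin2, Plin3, Plin5 and G0s2 did not pass.

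The difference between fasted and control livers was larger in females for 4 of the 10 genes, Cidec, Plin4, Plin5 and Pnpla2, and smaller for 0, where 5.34% and 7.02% of all genes were called in these directions. The genes were selected on the fasted and control differences that this comparison splits by sex, and these 4 also had the largest mean differences. The count and the adjusted p-values of this comparison are therefore not free of the selection, and nothing is read from the count. Cidec had a log2 difference of 6.64 (SE 0.23) in females and 4.60 (SE 0.20) in males, and the difference between them was 2.04 (SE 0.29, adjusted p = 7.59e-06). The levels of fasted males, 5.68 to 161 CPM (median 53), and fasted females, 2.42 to 281 CPM (median 96.3), overlapped widely, and the female minus male difference was -1.71 (SE 0.24) in control and 0.33 (SE 0.16) in fasted livers from CT12 on.

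Pnpla2 had 2.38 (SE 0.10) in females and 1.66 (SE 0.09) in males, a difference of 0.72 (SE 0.13, adjusted p = 1.95e-04), and 0.62 (adjusted p = 1.20e-04) without fasted CT40 female 2. Plin5 had 2.22 (SE 0.11) and 1.52 (SE 0.10), a difference of 0.70 (SE 0.14, adjusted p = 8.80e-04). Its fed levels were 19.1 to 76.2 CPM (median 48.3) in females and 28.9 to 71.9 CPM (median 50.3) in males, and its fasted levels 106 to 496 CPM (median 230) and 50.6 to 329 CPM (median 132). Plin4 had 3.78 (SE 0.19) and 2.81 (SE 0.18), a difference of 0.97 (SE 0.25, adjusted p = 0.00715), which lost its call without male replicate 2 (adjusted p = 0.205) and without female replicate 2 (adjusted p = 0.0608). Plin2 (0.43, SE 0.15, adjusted p = 0.0521) stood at the threshold and passed in 6 of 12 alternatives.

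Fitm1 had a female minus male difference of -2.40 (SE 0.23) in fasted and -2.34 (SE 0.22) in control livers from CT12 on, and the difference between them was -0.06 (SE 0.30, adjusted p = 0.978). In fasted livers the 18 males, 9.64 to 37.5 CPM, did not overlap the 18 females, 0.515 to 7.61 CPM. Abhd5 (0.20, SE 0.08, adjusted p = 0.0754), G0s2, Plin3 and Cideb did not pass.

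**Figure D5:**
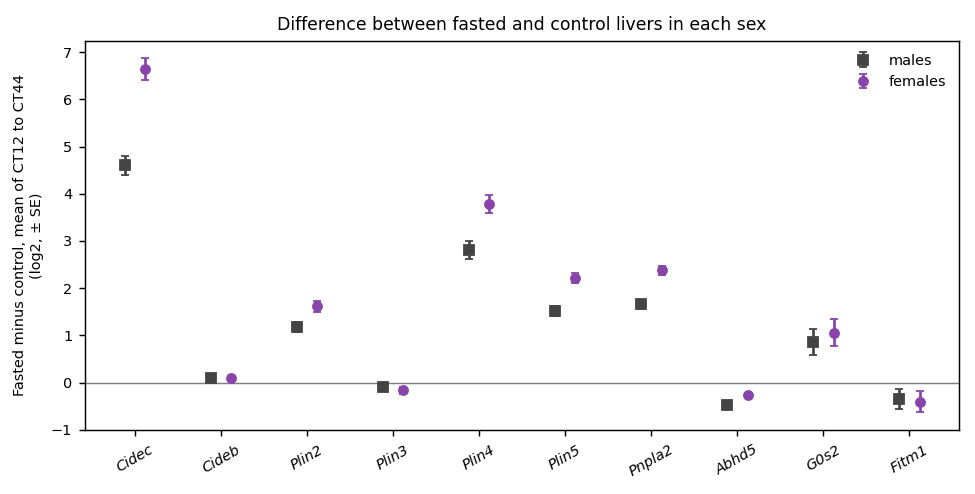
Log2 difference between fasted and control livers, mean of CT12 to CT44, in males (grey squares) and females (purple circles) with standard errors. Cidec, Plin4, Plin5 and Pnpla2 have larger differences in females; for Abhd5, Fitm1 and Plin3 both sexes lie below 0.

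Within fasted livers, the late times CT40 and CT44 were compared with CT16 and CT20, which are 24 h earlier and at the same phase. Cidec and Pnpla2 rose and 0 of the 10 genes fell, where 13.7% of all genes rose and 15.4% fell. Cidec ranged from 11.8 to 281 CPM (median 56.8) in the 8 early and from 83.9 to 161 CPM (median 138) in the 8 late libraries, a change of 1.11 (SE 0.24, adjusted p = 5.26e-04). This change pools unlike pairs of times: the Cidec mean was 22.6 CPM ± 8.22 (SD, n = 4) at CT16 and 114 ± 31.8 at CT40, but 173 ± 84 at CT20 and 149 ± 16.1 at CT44, and the pairs were not tested apart. Pnpla2 ranged from 187 to 458 CPM (median 241) and from 256 to 883 CPM (median 376), a change of 0.68 (SE 0.14, adjusted p = 1.78e-04), and 0.46 (adjusted p = 0.00328) without fasted CT40 female 2. Without that library Cideb also rose, by 0.31 (adjusted p = 2.38e-04), against 0.18 (adjusted p = 0.0735) with it.

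G0s2 had a change of -0.78 (SE 0.42, adjusted p = 0.158), with 146 to 421 CPM (median 271) early and 4.05 to 398 CPM (median 169) late, and did not pass. Plin5 (-0.34, adjusted p = 0.0885), Plin4 (-0.25) and Plin2 (-0.20) did not pass either. In control livers the same interval gave 0 calls among the 10 genes, where 0.0236% of all genes (5 of 21187, and 1779 at an unadjusted p under 0.05) were called. The largest of the 10 by test was Cideb, at 0.17 (SE 0.08, adjusted p = 0.58). The change in fasted livers differed from that in control livers for 1 of the 10, Pnpla2 (0.64, SE 0.19, adjusted p = 0.0205), where 14.3% of all genes were called. Without fasted CT40 female 2 it was 0.42 (adjusted p = 0.0935) and not called, nor was it without male replicate 1 (adjusted p = 0.206), male replicate 2 (0.225) or female replicate 2 (0.123). For Cidec it was 1.07 (SE 0.45, adjusted p = 0.105).

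Of 21 further lipid droplet genes, 19 were tested, and 10 were higher and 6 lower in fasted livers, beside 29.5% and 32.9% of all genes, with a median log2 difference of 0.12 against -0.02 over all genes. This list too was chosen with earlier results known, so its differences are given without p-values. The highest were Hilpda, an inhibitor of Pnpla2 (1.15, SE 0.10), and Fitm2, the second droplet formation gene of the Fitm family (1.12, SE 0.05). Next came Hsd17b11 (0.92, SE 0.05) and Hsd17b13 (0.88, SE 0.05), which encode droplet-bound dehydrogenases. The lowest were Pnpla3, a lipogenic relative of Pnpla2 (-4.37, SE 0.23), and Acsl3, an acyl-CoA synthetase of growing droplets (-1.45, SE 0.07). They were followed by Dgat2, an enzyme of triacylglycerol synthesis (-0.50, SE 0.04), and Ldah, a droplet hydrolase (-0.22, SE 0.05). Within the Pnpla family, Pnpla2 was thus above and Pnpla3 below control, and Fitm2 was above control beside a Fitm1 difference of -0.37 (SE 0.15) whose ranges overlapped at all 9 times.

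Of 7 transcriptional regulators of fasting and lipid storage, 4 were higher and 2 lower in fasted livers, beside the same shares of all genes (29.5% and 32.9%), with a median of 0.64 against -0.02. Ppargc1a, a coactivator of fasting genes, had a log2 difference of 1.73 (SE 0.12), Creb3l3, a fasting factor of the liver, 0.78 (SE 0.04), Foxo1, held in check by insulin, 0.76 (SE 0.04), and Ppara, the fatty acid receptor, 0.64 (SE 0.07). Srebf1 and Mlxipl, which drive lipogenesis after feeding, had -3.13 (SE 0.10) and -1.22 (SE 0.06). Pparg, the adipogenic receptor, had -0.09 (SE 0.07) and was not called. The fasted minus control difference was more positive in females than in males for Creb3l3 (0.33, adjusted p = 0.0015) and Pparg (0.61, adjusted p = 0.00475) and more negative for Mlxipl (-0.46, adjusted p = 0.00621).

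Over the 20 means of treatment and time, the levels of Cidec ran most closely with those of Pnpla2 among the other 9 genes (Pearson r = 0.962), then Plin4 (0.926), Plin2 (0.879) and Plin5 (0.869), and ran opposite to Abhd5 (-0.798). These values share libraries and the step from fed to fasted, and are given as a description. Among 11576 genes the 5 closest to Cidec were Psmd9 (0.987), Oplah (0.986), Acad11 (0.986), Tmem120a (0.984) and Slc27a1 (0.984). Those closest to Plin2 were Rbpms (0.981), Rtf2 (0.971), Gpatch2l (0.970), Rabggtb (0.970) and Tlcd4 (0.969). Those closest to Pnpla2 were Map1lc3b (0.991), Eif1 (0.984), Farp2 (0.983), Optn (0.983) and Gsk3a (0.982).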

How the data were processed

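The authors deposited raw counts per gene and per exon bin for the 80 livers, whole numbers without normalization; their normalized signal was not used. The submitters' processing notes name Trimmomatic, HISAT2, DESeq2 and the build GRCm39, without versions or roles; the counting program is not given in the sources used here. Libraries were poly-A selected and kept strand. From the deposited counts, CPM were scaled by TMM. Genes were filtered with filterByExpr and fitted with edgeR 4.0.16 (R 4.3.3; glmQLFit, glmQLFTest) with a mean per treatment, time and sex; rhythms used a cosine and sine of 24 h. P-values were adjusted by Benjamini-Hochberg over all genes and called under 0.05. SE is the log2 value divided by the root of F. Alternatives were limma 3.58.1 (voom), DESeq2 1.42.0, other scalings and filters, single sexes and left-out libraries. The fits were run on simulated counts with known changes. Recovery of the large changes was required of each comparison but the late against early one.

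The 10 genes and the lists were chosen with earlier results of these data known. The text names all 10 genes, the 4 largest rises and falls called in the further list, every regulator, and the 5 genes closest to Cidec, Plin2 and Pnpla2 with a mean log2 CPM of at least 1 (prior count 2). Total counts per library lay between 25534901 and 59927771. Libraries of the same treatment and time differed beyond counting noise in all 120 pairs (lowest chi-square per degree of freedom 14.8). These pairs include males set against females. In the exon table, 5 lines without a bin name held 8.28 to 25.9% of each column and were left out. Positions are those of GENCODE M21 or RefSeq on GRCm38, not the GRCm39 named by the submitters; the number of bins was alike for all genes but Plin4 (12 in M21, 10 in the table). No batch or date is given in the labels.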

Additional observations from a re-analysis of the deposited data

Results flagged for a closer look

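In groups of 4 libraries of 1 treatment and time, the highest or lowest library was marked where Dixon's ratio of its log2 CPM (gap over range) exceeded the 95% critical value. Of 200 groups of the 10 genes, 12 were marked, where the nominal rate of the critical value gives 10. That rate assumes 4 like and independent draws. Each group holds 2 males and 2 females, and the groups reuse the same libraries over the genes, so 10 is only a guide. Fasted CT40 female 2 was marked for Cideb (6.86) and Pnpla2 (9.79), and fasted CT44 female 1 for Plin2 (9.08) and Plin3 (4.44). The others were Plin2 in control CT28 female 2 (7.79) and fasted CT24 female 1 (10.57), G0s2 in control CT28 female 2 (4.39), Cideb in fasted CT32 male 2 (7.62), Plin3 in control CT12 female 1 (5.83), Plin4 in control CT44 female 2 (2.72), Plin5 in fasted CT16 male 2 (6.82) and Pnpla2 in fasted CT8 male 2 (6.86).

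The fasting difference was larger in females than in males by an interaction test for Cidec (2.04, log2), Plin4 (0.97), Plin5 (0.70) and Pnpla2 (0.72), and larger late than early for Pnpla2 (0.64). The genes were selected on fasted and control differences in these same libraries. The Plin4 call was lost in 2 of 12 alternatives, and the late against early call of Pnpla2 in 6 of 15.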

How the results depend on the processing

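Over the 20 alternatives, none reversed a called value of the 10 genes, 41 values lost their call and 54 gained one. Another 62 values, called neither in the main setting nor in the alternative at hand, changed sign or, for rhythms, shifted their fitted peak by hours. Of the mean fasting difference (9 called), 7 to 10 were called with libraries left out: Cideb and Fitm1 lost their calls without either male replicate and in females only, and Plin3 gained one without either female replicate, by DESeq2 and by voom. The count of 10 genes different at CT8 (0) was 2 without a filter on low counts and 0 to 1 with libraries left out (1 without female replicate 1: Cideb, 0.35, adjusted p = 0.00312). Rhythms in control livers (8) numbered 5 in females only and 5 to 9 with libraries left out (5 without female replicate 1), and differing rhythms (4) numbered 8 without a filter 2 in females only and 4 to 5 with libraries left out. Genes changed late in the fast (2) numbered 5 without a filter and 2 to 4 with libraries left out, adding Plin3 and G0s2 without female replicate 1 and Cideb and Plin5 without female replicate 2. Genes changed in control livers from day 1 to day 2 (0) numbered 1 without a filter. The late against early difference (1) numbered 7 without a filter, 0 in males only, 0 in females only, 2 over CT36, CT40 and CT44 minus CT12, CT16 and CT20, and 0 to 3 with libraries left out, with Cidec and G0s2 called without female replicate 1 and Plin2 and Plin5 without female replicate 2. Leaving out fasted CT40 female 2 or fasted CT8 female 1 was chosen after seeing the data. The cause was not tested. With a replicate block, 9, 0, 8, 4, 5, 4, 2, 0 and 1 of the 10 genes were called in the 9 comparisons in the order of the report's tests from the mean difference to the late against early difference, and only the sex difference of Cideb lost its call. The main fit did not pair samples by replicate number. The difference between replicates was correlated between fasted and control libraries in each of 20 pairs of time and sex. Of these, 5 had a correlation over 0.1 (lowest -0.154, median 0.00044). The highest were 0.499 in CT16 males and 0.212 in CT16 females. Whether equally numbered libraries share a source at such times was not tested.

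Counts over all genes moved by over 1.5 times at CT8 (282; 0 to 2125 over 11 alternatives, with 510 by DESeq2 and 4 by voom), for rhythms in controls (8417; 4693 to 5104), differing rhythms (4857; 1559 to 2640), sex by fasting (2620; 238 to 360), late in the fast (6177; 2683 to 2943), controls from day to day (5; 0 to 429) and late against early (3035; 523 to 1499). Leaving out 1 library leaves an arm with 1 sample, assumed to vary like the others. Depth limits Cidec in controls, where 4 to 169 counts stand behind a value.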
